A study of Mus musculus with 4 samples.

Results

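Ezh2, Eed, Dnmt1, Dnmt3b and Cbx1 encode repressive chromatin factors of mouse embryonic stem cells. They were chosen by symbol, and each had 1 row in the deposited count tables, which made 5 of 1517 named features. EZH2 is the catalytic subunit of Polycomb repressive complex 2 (PRC2), which methylates histone H3 at silent developmental genes, and EED is the PRC2 subunit that binds this mark. DNMT1 copies cytosine methylation onto newly replicated DNA, DNMT3B places methylation de novo, and CBX1 is the HP1 beta protein, which binds methylated histone H3 in heterochromatin. Embryonic stem cells express these factors, and they use PRC2 to keep developmental genes silent but poised.

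Total RNA was sequenced from V6.5 cells, a mouse embryonic stem cell line, at passage 3. One group carried a short hairpin against GFP as the control (shGFP, 2 libraries) and the other a short hairpin against NCAPH2, a subunit of condensin II, the complex that compacts and folds chromosomes (shNCAPH2, 2 libraries). Both groups were selected with puromycin at 2 µg/mL for 5 days, and both were grown on irradiated feeder fibroblasts before a final culture without them. The labels do not tie the libraries of a group to separate cultures. The p-values therefore cover only the spread among these libraries, part or all of which could be technical. The comparison asks how gene expression differs when condensin II is depleted. Ncaph2 itself was not analysed here, so the depletion was not checked on its own transcript.

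The tables hold a part of each library, with named counts summing to 507891 and 429907 in shGFP and to 243628 and 272426 in shNCAPH2. All named features had fewer counts in shNCAPH2, the highest keeping 67.8% of its shGFP count, so a lower count is a property of the list and no finding about these 5 genes. In total RNA of a culture, fewer cells of a type and less RNA per cell cannot be told apart. Sequencing depth is not given in these sources, and a difference in depth cannot be told apart from them either. A share of the shGFP count kept is therefore a share of raw counts and not an RNA level. Of 15 embryonic stem cell markers, 5 were in the tables, with summed counts of 2259 and 2432 in shGFP and 1577 and 1289 in shNCAPH2. Nanog held most of these counts and kept 62.2% of its shGFP count, and Sox2 kept 61.1%. Zfp42 kept 40.4%, Pou5f1 35.0% and Esrrb 4.17% (11 and 13 counts against 0 and 1), so the markers lay on both sides of the median of named features, 46.7%. Of 20 feeder fibroblast markers, 1 was in the tables, Igfbp7, with 58 and 65 counts against 32 and 29. Their part in the results below was not tested.

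By the positions in the tables, which follow the GRCm38 build, the 5 genes lie on 5 chromosomes: Ezh2 on chromosome 6 (47530274 to 47595341, minus strand), Eed on chromosome 7 (89954656 to 89980983, minus), Dnmt1 on chromosome 9 (20907206 to 20959888, minus), Dnmt3b on chromosome 2 (153649450 to 153687730, plus) and Cbx1 on chromosome 11 (96789127 to 96808640, plus). All 5 are annotated as protein-coding genes in GENCODE M21. Their merged exons add up to 6678 bases for Ezh2, 3828 for Eed, 7377 for Dnmt1, 5106 for Dnmt3b and 4273 for Cbx1. Exons of Ezh2 share 174 bases with Gm26625, and those of Eed 261 bases with E230029C05Rik, each on the opposite strand. The labels do not give the strand setting of the counting, so counts of Ezh2 and Eed may include reads of these partners. The strand from which reads were counted could not be settled for any row, so for all 5 genes, Dnmt1, Dnmt3b and Cbx1 included, it is not known that a count is of sense transcripts alone. No annotated exon of another gene overlapped the merged exons of Dnmt1, Dnmt3b or Cbx1. Introns of the 5 genes were not searched. Outside that Eed partner, no transcript of another gene matched the longest coding transcript of any of the 5 at 95% identity or more over at least 100 bases.

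The promoters are shown because the CG dinucleotide is the target of DNMT1 and DNMT3B. Its number in the 250 bases before a start site ran from 2 to 26. Both ends of that range are start sites of Dnmt1, of which only the 1 with 2 is printed. DNA methylation was not measured in these libraries. Each line is sequence upstream of a RefSeq start site (GRCm38.p6), 5′ to 3′ on the strand of the gene, with CG dinucleotides in capitals. It was cut to the longest stretch of the 250 bases before the start site that holds no annotated exon of the gene. The Ezh2 line precedes its RefSeq start site, at 47595030, but lies inside the counted Ezh2 feature, which reaches 47595341.
Ezh2 (chr6:47595059-47595183, minus): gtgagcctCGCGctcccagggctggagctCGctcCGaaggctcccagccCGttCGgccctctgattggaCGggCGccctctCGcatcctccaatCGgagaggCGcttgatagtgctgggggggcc
Eed (chr7:89980984-89981226, minus): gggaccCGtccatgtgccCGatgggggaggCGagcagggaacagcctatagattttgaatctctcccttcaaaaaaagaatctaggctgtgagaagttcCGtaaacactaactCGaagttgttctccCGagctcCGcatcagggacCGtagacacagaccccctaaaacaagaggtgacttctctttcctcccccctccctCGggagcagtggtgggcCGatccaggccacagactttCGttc
Dnmt1 outer start site (chr9:20959889-20960138, minus): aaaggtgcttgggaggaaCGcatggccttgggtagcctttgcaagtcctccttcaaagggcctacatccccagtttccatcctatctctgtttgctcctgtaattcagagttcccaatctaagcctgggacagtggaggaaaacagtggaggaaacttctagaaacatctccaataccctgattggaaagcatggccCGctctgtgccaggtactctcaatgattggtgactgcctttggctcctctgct
Dnmt3b (chr2:153649199-153649448, plus): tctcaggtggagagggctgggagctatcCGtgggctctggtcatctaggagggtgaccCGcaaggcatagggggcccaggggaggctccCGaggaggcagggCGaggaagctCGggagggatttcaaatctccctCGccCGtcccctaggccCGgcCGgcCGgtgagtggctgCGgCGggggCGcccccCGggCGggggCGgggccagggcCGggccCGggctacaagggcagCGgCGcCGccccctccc
Cbx1 (chr11:96788885-96789126, plus): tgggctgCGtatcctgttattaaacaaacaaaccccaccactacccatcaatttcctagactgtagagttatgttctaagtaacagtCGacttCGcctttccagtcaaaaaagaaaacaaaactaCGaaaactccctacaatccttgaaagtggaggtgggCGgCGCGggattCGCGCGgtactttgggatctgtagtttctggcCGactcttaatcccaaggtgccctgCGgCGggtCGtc

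Over the full 250 bases, the Ezh2 promoter held 23 CG dinucleotides, more than 86.7% of 32851 RefSeq windows of that length. That Ezh2 window includes annotated untranslated exon of the gene. Its part without exons, printed above, held 11 of the 23, so the rank is not of upstream sequence alone. Dnmt3b held 21 (more than 83.7% of windows), Cbx1 16 (74.6%) and Eed 12 (66.5%), against a median of 6 over all windows. The Cbx1 and Eed windows also include 8 and 7 bases of annotated untranslated exon, and their printed parts held 14 and 11 CG dinucleotides. Dnmt1 has 3 start sites in RefSeq, and the outermost, at the end of the counted feature, had 2 CG dinucleotides in its window. The middle Dnmt1 window had 7 and the innermost, which runs through annotated exons of longer transcripts and is not printed, had 26. The counts do not separate transcripts from these start sites. High CG content was common among all the features of the tables: the 1185 windows found for 942 of them had a median of 17.

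**Figure D1:**
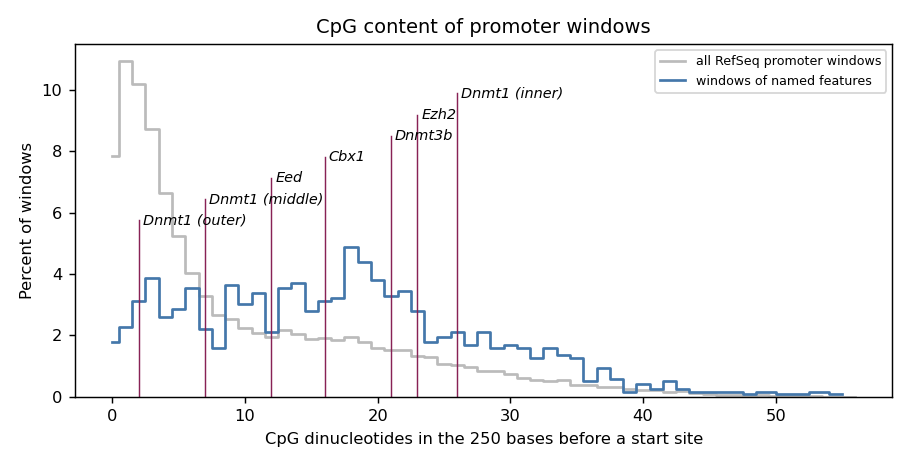
CpG dinucleotides in the 250 bases before a start site (x axis) against the percent of windows (y axis), for all 32851 RefSeq windows (grey) and the 1185 windows of named features (blue). Vertical lines mark the 7 windows of the 5 genes, from 2 (outer start site of Dnmt1) to 26 (inner start site of Dnmt1); 5 of these 7 lie above the overall median of 6 by at least 6.

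Short promoter words were searched on both strands of the same windows. CCAAT was present 3 times in the Ezh2 window, 4 times in the outer and 3 times in the inner Dnmt1 window, and in 33.8% of all windows. GGGCGG, the GC box, was present 3 times in Dnmt3b, once in Cbx1 and 2 times in the inner Dnmt1 window, against 32.7% of all windows and 57.0% of those of named features. Of the E2F-type words TTTGGCGC, TTTCCCGC and TTTCGCGC, 1 match lay in the inner Dnmt1 window, against 1.53% of all windows and 3.63% of those of named features. An NRF1-type word, GCGC followed 2 bases later by GCGC and sharing those letters with the last E2F-type word, matched once in Ezh2, in 4.98% of all windows and in 10.5% of those of named features. Eed held none of these words, and TATAAA, found in 12.4% of all windows and 4.89% of those of named features, was in no window of the 5 genes. A match describes letters and is not evidence of a bound factor.

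Ezh2, the PRC2 methyltransferase, was counted 23 and 18 times in shGFP, and 8 and 13 times in shNCAPH2. The groups did not overlap. Scaled to counts per 1000000 named counts of the library (CPM), the groups did overlap: 45.3 and 41.9 in shGFP lay between 32.8 and 47.7 in shNCAPH2. The summed shNCAPH2 count was 51.2% of that in shGFP (exact 95% interval 28.8% to 88.7%, counting error only).

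Eed, the PRC2 subunit that reads the mark made by EZH2, was counted 26 and 10 times in shGFP, against 10 and 12 times in shNCAPH2, so the groups overlapped. The first shGFP library stood 2.6 times above the second, against a ratio of 1.18 between their named totals and a median ratio of 1.27 over all named features. Eed kept 61.1% of its shGFP count (34.2% to 107%), a share above that of 83.1% of named features. This share was 110% without shGFP replicate 1 and 42.3% without shGFP replicate 2, so it depends on both shGFP libraries. Together the PRC2 subunits Ezh2 and Eed summed to 49 and 28 counts in the shGFP libraries, against 18 and 25 in the shNCAPH2 libraries.

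Dnmt1, the maintenance methyltransferase, gave 42 and 40 counts in the shGFP libraries and 25 and 20 in the shNCAPH2 libraries. It had the closest shGFP pair of the 5 genes, with a ratio of 1.05, and both shNCAPH2 counts lay below it. Dnmt1 kept 54.9% of its shGFP count (37.3% to 79.9%). Its CPM was 82.7 and 93.0 in shGFP, and 103 and 73.4 in shNCAPH2, so here too the shGFP values lay inside the shNCAPH2 range.

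Dnmt3b, the de novo methyltransferase, gave 20 and 7 counts in the shGFP libraries and 2 and 8 in the shNCAPH2 libraries. It was the sparsest of the 5 genes, the groups overlapped, and its libraries differed most within each group as a ratio of counts. It kept 37.0% of its shGFP count (16.0% to 79.0%), the lowest share of the 5 and the only one below the median of named features, 46.7%. Single libraries decided that share, which was 14.8% without shNCAPH2 replicate 2, 59.3% without shNCAPH2 replicate 1, and 71.4% without shGFP replicate 1. Without shGFP replicate 2 it was 25.0%.

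Cbx1, the HP1 protein, was counted 41 and 32 times in shGFP, and 21 and 20 times in shNCAPH2, with no overlap between the groups. It kept 56.2% of its shGFP count (37.3% to 83.4%). After scaling it was the steadiest of the 5, with a CPM of 80.7 and 74.4 in shGFP, and of 86.2 and 73.4 in shNCAPH2.

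**Figure D2:**
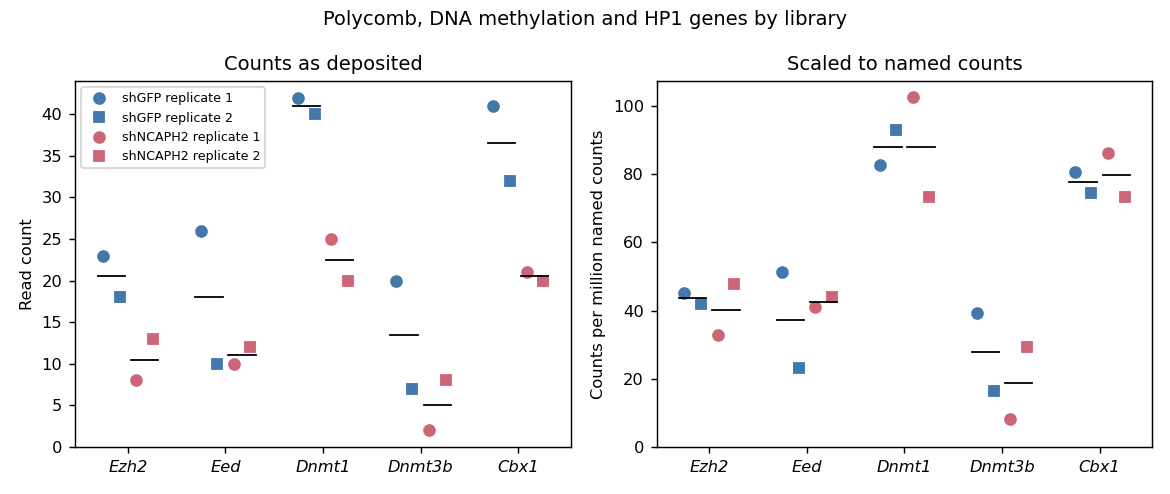
Read counts (left) and CPM over named counts (right) of the 5 genes in each library, shGFP in blue and shNCAPH2 in red, replicate 1 as circles and replicate 2 as squares; black lines are group means. The counts on the left run from 2 (Dnmt3b) to 42 (Dnmt1), and on the right no gene has both shNCAPH2 points below both shGFP points.

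The groups did not overlap, with shNCAPH2 lower, in 3 of the 5 genes (Ezh2, Dnmt1 and Cbx1), against 88.4% of named features. In CPM this held for 0 of the 5, against 33.9% of named features. Summed over the 5 genes there were 259 counts in shGFP and 139 in shNCAPH2, a share of 53.7% (43.4% to 66.2%), and the share over all named features was 55.0%. For every 100000 named counts the 5 genes held 29.9 and 24.9 in shGFP, and 27.1 and 26.8 in shNCAPH2. The shNCAPH2 values therefore lay between those of the shGFP libraries. Of the 5 genes, 4 kept more than the median named feature, a median that weighs sparse features like the others. Only Cbx1 (56.2%) and Eed (61.1%) kept more than the 55.0% of all named counts. Dnmt1 (54.9%), Ezh2 (51.2%) and Dnmt3b (37.0%) kept less.

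**Figure D3:**
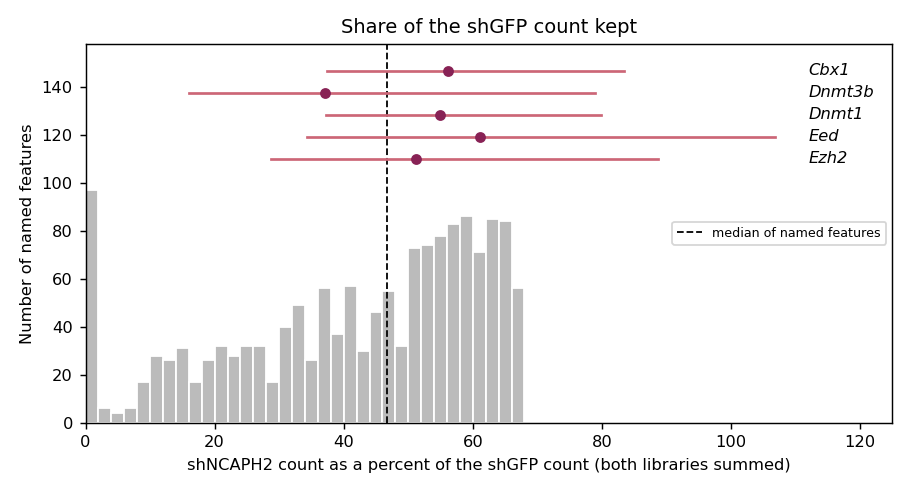
Histogram of the share of the shGFP count kept in shNCAPH2 (x axis, percent) over 1517 named features (y axis, number of features), with the median of 46.7% dashed. Points above it are the 5 genes with exact 95% intervals for counting error; they run from 37.0% (Dnmt3b) to 61.1% (Eed), and all 5 intervals include the median.

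In CPM per kilobase of merged exon, the order in shGFP was Cbx1 (18.2 ± 1.04, SD, n = 2), Dnmt1 (11.9 ± 0.99), Eed (9.72 ± 5.16), Ezh2 (6.53 ± 0.36) and Dnmt3b (5.45 ± 3.20). Cbx1 lay above Dnmt1 in both shGFP libraries and beyond their range. Neighbours below that overlapped, Eed for instance covering 6.08 to 13.4 and Ezh2 6.27 to 6.78. In shNCAPH2 the order was the same on this scale, with Cbx1 at 18.7 ± 2.12, Dnmt1 at 11.9 ± 2.80, Eed at 11.1 ± 0.55, Ezh2 at 6.03 ± 1.58 and Dnmt3b at 3.68 ± 2.93. There Dnmt1 and Eed overlapped, as did Ezh2 and Dnmt3b, while Eed lay above Ezh2 in both libraries. These are levels within the listed part of each library and not shares of all RNA, and they may not be messenger RNA levels. Actb and Pou5f1 (OCT4), whose transcripts are abundant in embryonic stem cells, had few counts here, and the cause was not tested. Pou5f1 had 39 and 21 counts in shGFP and Actb was counted 46 and 29 times in shGFP, and 18 and 22 times in shNCAPH2.

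None of the 5 genes passed the test of the group difference. The edgeR quasi-likelihood test on 896 features that passed a filter on low counts, with scaling to the typical tested feature (TMM) and Benjamini-Hochberg adjustment at 0.05, included all 5 and called 0 of them. It called 1.0% of all tested features, each lower in shNCAPH2. At an unadjusted p under 0.05, edgeR still had 0 of the 5, against 6.36% of tested features. With adjusted p-values, the other tools called 0 of the 5, against 1.0% of tested features with DESeq2, 0.781% with limma voom and 2.46% with the exact test. A fold change on this scale is relative to the typical tested feature, which itself had fewer counts in shNCAPH2. All 5 genes gave an adjusted p of 0.999.

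Cbx1 was closest to the typical feature, with a relative log2 fold change of -0.0017 ± 0.31 (SE) and a 95% interval of -0.69 to 0.68. Dnmt1 was at -0.040 ± 0.32 (-0.75 to 0.67) and Ezh2 at -0.14 ± 0.40 (-1.03 to 0.76). Eed, at 0.13 ± 0.47 (-0.91 to 1.17), was the 1 gene of the 5 with a positive estimate, and Dnmt3b, at -0.59 ± 0.65 (-2.04 to 0.87), had the most negative. The intervals leave room for a 2-fold change relative to the typical feature, lower in Ezh2 and Dnmt3b and higher in Eed. In Dnmt1 and Cbx1 they leave room for a smaller one. A missed threshold therefore does not show that levels were equal. The median of the 5 was -0.040, against -0.0042 over all tested features. The lower and upper quartiles of all tested features were -0.25 and 0.13, a range that held Cbx1, Dnmt1, Ezh2 and Eed. Dnmt3b stood above only 10.5% of tested features. In each of the 5 genes the sign of the estimate changed when at least 1 library was left out.

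**Figure D4:**
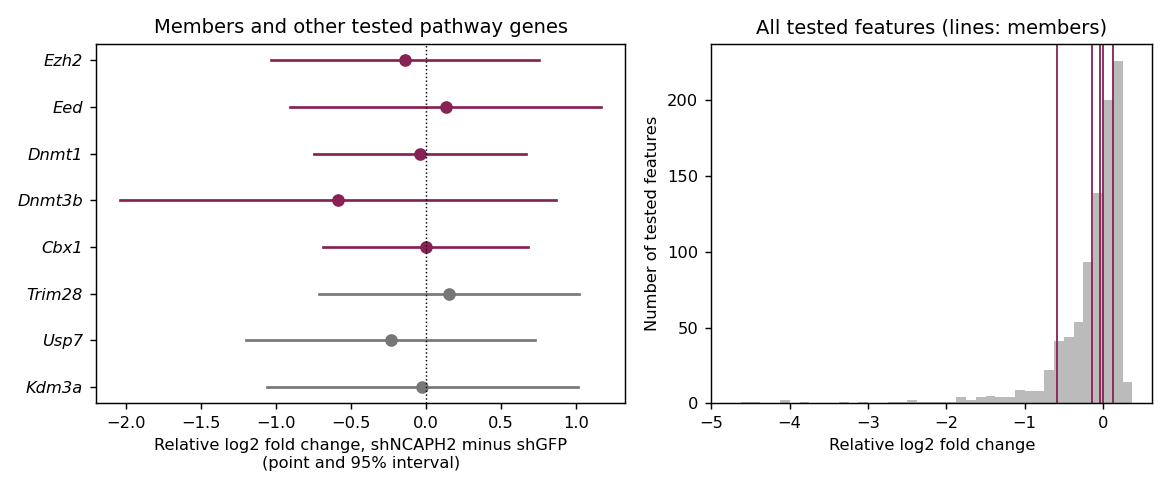
Left, relative log2 fold change (shNCAPH2 minus shGFP, x axis) with its 95% interval for the 5 genes (purple) and for Trim28, Usp7 and Kdm3a (grey); all 8 intervals include 0. Right, the distribution of that value over 896 tested features (y axis, number of features), with the 5 genes as purple lines from -0.59 to 0.13.

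With the same size assigned to each of the 4 libraries, so that no allowance was made for the smaller named totals of shNCAPH2, Dnmt1 had a log2 fold change of -0.86, Cbx1 of -0.83, Ezh2 of -0.96 and Eed of -0.70. None of these 4 genes passed (edgeR adjusted p = 0.079, 0.094, 0.10 and 0.25), while 30.6% of the tested features did, all lower. Dnmt1 alone of the 4 had an unadjusted p under 0.05, against 52.9% of tested features. Dnmt3b did not pass the filter under that scaling. Neither scaling is known to be right for a table that holds lower features only.

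The wider set of Polycomb, DNA methylation and heterochromatin genes was drawn from 93 annotated genes, of which 10 were in the tables: the 5 above, Rnf2, Usp7, Tet3, Kdm3a and Trim28. The remaining 83 were not analysed here, among them 4 of 6 PRC2 core genes. Of the 10, 8 were tested and 0 were called, with a median relative log2 fold change of -0.031. The highest value of any tested feature was 0.26 in this list of lower features, so the test could in practice call only lower ones. Without a filter all 10 were tested and 0 called, against 1.38% of 1517 features.

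Of 23 genes of Polycomb repressive complex 1, which ubiquitinates histone H2A, Rnf2 alone was listed. Rnf2, its ubiquitin ligase, gave 11 and 4 counts in the shGFP libraries and 2 in each shNCAPH2 library, which was too few for the filter. Without a filter its relative log2 fold change was -0.93 ± 0.81 (SE, edgeR adjusted p = 0.75). Exons of Rnf2 share 158 bases with Trmt1l on the opposite strand. Tet3, 1 of 4 genes of DNA demethylation, oxidises methylcytosine and so opposes the methyltransferases. It had 7 and 6 counts against 0 and 2, also below the filter (-1.67 ± 0.98 without one, edgeR adjusted p = 0.55). Rnf2 and Tet3 were the 2 of these 10 genes whose groups did not overlap in CPM, a smaller share than the 33.9% of named features.

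Usp7, a deubiquitinase that acts on DNMT1 and its partner UHRF1, was counted 28 and 16 times in shGFP, and 7 and 14 times in shNCAPH2 (relative log2 fold change -0.23 ± 0.43 SE). Kdm3a, a histone H3 lysine demethylase, had 17 and 19 against 13 and 7 (-0.023 ± 0.47). Trim28 is the co-repressor KAP1, which recruits heterochromatin factors to retroelements. Its counts, 32 and 16 against 12 and 18, overlapped between the groups (0.16 ± 0.39). With edgeR each of these 3 genes gave an adjusted p of 0.999.

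The average of the 5 genes placed 41.0% and 25.0% of a gene's counts in the shGFP libraries and 14.7% and 19.3% in the shNCAPH2 libraries. Candidates were 376 named features with at least 100 counts, outside the wider set of genes above and without a Gm or Rik gene-model symbol. Among these candidates, the nearest to this pattern over the 4 libraries were Frmd8os, Fbxo41 and Actb. Their summed absolute differences from it were 0.70, 1.34 and 2.37 percentage points. The 5 genes themselves lay 11.5 (Ezh2) to 30.7 points (Dnmt3b) from their own average. Frmd8os was counted 76 and 46 times in shGFP, and 27 and 35 times in shNCAPH2, and Fbxo41 had 69 and 43 against 26 and 33.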

How the data were processed

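For each library the authors deposited raw counts per feature. TopHat2 2.0.10, edgeR and the build mm9 are named, without roles, in the submitters' processing notes. Feature positions nevertheless match GRCm38. The counter, the annotation and the rule that selected the listed features are not given in these sources. Of 1618 rows, the 101 without a symbol held 22.2% to 23.3% of a library's counts and were left out of library sizes and tests.

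Groups came from the sample titles. Counts were fitted over the whole table with edgeR 4.0.16 in R 4.3.3 (TMM, filterByExpr, quasi-likelihood test, group alone, 2 residual degrees of freedom), and adjusted by Benjamini-Hochberg at 0.05. The SE was derived from the F statistic (log2 fold change over the root of F, unsigned). The procedure was run on simulated counts with changes balanced in both directions. That differs from a list of lower features, so the run cannot show that the scaling is right here. The share kept is the summed shNCAPH2 count over the summed shGFP count, with an exact Clopper-Pearson 95% interval for counting error only. The table totals are not sequencing depths.

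Alternatives were RLE factors, equal library sizes, no filter, a filter of 20 counts in 2 libraries, a replicate block, each library left out, DESeq2 1.42.0, limma 3.58.1 voom, the exact test, rows without a symbol kept and a threshold of 0.1. The members, gene lists and tests were chosen with earlier results of these data known. Named are the 5 genes, listed genes of the pathway lists, and the 3 features of most similar pattern. Those 3 were taken from features with 100 or more counts, outside these lists and not Gm or Rik gene models. Exons came from GENCODE M21, promoters from RefSeq (all 5 genes matched).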

Additional observations from a re-analysis of the deposited data

How the results depend on the processing

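With 2 libraries per group and 2 to 42 counts per library, the narrowest 95% interval of the 5 genes, that of Cbx1, was 1.37 wide on the log2 scale and the widest, that of Dnmt3b, 2.91. In 14 alternatives 0 of the 5 were called, as were 0 of the wider set. Not every gene passed each filter: the stricter one left Cbx1 and Dnmt1, and Dnmt3b was not tested with equal library sizes or without shGFP replicate 1. Of 60 values of the 5 genes under alternatives, 42 kept their sign and 18 changed it, none past the threshold (lowest edgeR adjusted p = 0.079, with equal library sizes).

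The median of the 5 genes moved from -0.040 to -0.85 with equal library sizes, where Eed went to -0.70 and Trim28 to -0.67. The share kept by the 5 together moved from 53.7% to 98.3% in CPM; both moves follow from the scaling. The sign also changed for Dnmt1 (0.017 with RLE, 0.076 with no filter, 0.017 with DESeq2), Kdm3a (0.034, 0.093 and 0.034) and Cbx1 (0.056, 0.11 and 0.059), and for Cbx1 with the stricter filter (0.026), limma voom (0.0096) and rows without a symbol kept (0.0067). Without 1 library the range was -0.39 to 0.14 for Ezh2, -0.28 to 0.81 for Eed, -0.24 to 0.24 for Dnmt1, -1.74 to 0.060 for Dnmt3b, -0.069 to 0.16 for Cbx1, -0.57 to 0.48 for Kdm3a, -0.13 to 0.58 for Trim28, -0.68 to 0.15 for Usp7, -0.17 to 0.13 for the median of the 5, and 45.7% to 65.0% for their share kept.

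The replicate block called 4 features of all tested and none of the 5 genes, and turned Cbx1 to 0.0024. Same-numbered libraries showed no positive correlation of their deviations (r = -0.061 over 896 features, and -0.64 over the 243 with at least 300 shGFP counts), and nothing in the labels pairs them. With 2 libraries per group, libraries of unlike number have the same r with the opposite sign. A block of that pairing was not fitted, and the source of the correlation was not tested. Of all tested features 9 were called, against 16 with RLE, 284 with equal library sizes, 21 with no filter, 22 with the exact test, 14 with the stricter filter and 19 at an adjusted p under 0.1. Without 1 library it was 12 to 18 (for shGFP replicates 1 and 2 left out, 14 and 18, and for shNCAPH2 replicate 1 left out, 16); the cause was not tested.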
